A study of Mus musculus with 216 samples.

Results

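Chromosome 11 of the mouse carried 2280 of the 43039 H3K9me3 domains in the series, and had the highest share of the residual class of any autosome. All domains that the deposited table places on chromosome 11 were taken, with no filter on width or class, so every member is described below. Each domain has 1 of 4 decay classes (fast, intermediate, slow or residual) that the authors gave it from the loss of H3K9me3 over a time course. The classes were read as given, with limits between them that the sources used here do not state.

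The cells were the mouse embryonic stem cell line dTKO, whose genotype reads Suv39h1fl/fl; Suv39h2-/-; Setdb1fl/fl. They received 100 µg/ml auxin together with 0.5 µM dTAG13, a pair of small molecules that direct tagged proteins to degradation, and were sampled at 0, 1, 3, 12, 24 and 48 h. The 0 h samples are the baseline and lack Suv39h2 like all the others. H3K9me3 and HP1b were each measured by ChIP-seq with matched inputs in 54 sequencing runs per kind, 9 per time, which are 3 biological repeats with 3 runs each. The sources used here do not say whether the line is 1 clone. The table gives every domain 1 class and has 0 columns with values per sample, so depth is unknown, no value below has a replicate error and no test between samples was possible. All values are therefore descriptions. The 95% intervals are exact Clopper-Pearson intervals that cover the counting of domains only, and neighbouring domains are not independent.

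H3K9me3 is the histone mark of constitutive heterochromatin. The enzymes SUV39H1 and SUV39H2 place it mainly at satellite and other repeats, and SETDB1 places it at retrotransposons, to which it is brought by KRAB zinc finger proteins with TRIM28, and at some imprinted and germline genes. HP1 proteins bind the mark, and without the enzymes it is lost by demethylation, by histone exchange and by dilution as cells divide.

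The sequences under the domains differed in kind between classes, and a few are printed to show what the classes hold. The first set is the 250 bases before the transcript start of 5 genes for which that whole stretch lay inside a domain, with CpG dinucleotides in capitals, from the RefSeq promoters of GRCm38.p6. Krt31 encodes a hair keratin. Tex19.1 restrains retrotransposons in the germline and placenta, Meioc is needed to enter and hold meiosis, Hsf5 is a heat shock factor family member of the male germline, and Lypd9 had the largest share of its body in slow domains among genes of at least 5 kb.
Krt31 promoter, residual, minus strand, chr11:100050552-100050801: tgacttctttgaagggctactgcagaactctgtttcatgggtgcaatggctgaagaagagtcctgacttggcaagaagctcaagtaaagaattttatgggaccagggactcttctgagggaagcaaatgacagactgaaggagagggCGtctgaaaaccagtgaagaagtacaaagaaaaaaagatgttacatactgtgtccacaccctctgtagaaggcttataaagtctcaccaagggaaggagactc
Meioc promoter, residual, plus strand, chr11:102665335-102665584: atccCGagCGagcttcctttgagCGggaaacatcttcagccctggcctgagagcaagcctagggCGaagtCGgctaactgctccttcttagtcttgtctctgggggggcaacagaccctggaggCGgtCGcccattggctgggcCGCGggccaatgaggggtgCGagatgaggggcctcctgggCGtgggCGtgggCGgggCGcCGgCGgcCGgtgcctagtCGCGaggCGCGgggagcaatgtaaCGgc
Tex19.1 promoter, intermediate, plus strand, chr11:121145893-121146142: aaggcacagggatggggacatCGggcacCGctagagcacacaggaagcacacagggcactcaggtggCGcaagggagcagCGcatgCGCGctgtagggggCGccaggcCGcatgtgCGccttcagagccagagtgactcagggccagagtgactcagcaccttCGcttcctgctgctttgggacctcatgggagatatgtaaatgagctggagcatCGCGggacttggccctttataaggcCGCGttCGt
Hsf5 promoter, intermediate, plus strand, chr11:87616914-87617163: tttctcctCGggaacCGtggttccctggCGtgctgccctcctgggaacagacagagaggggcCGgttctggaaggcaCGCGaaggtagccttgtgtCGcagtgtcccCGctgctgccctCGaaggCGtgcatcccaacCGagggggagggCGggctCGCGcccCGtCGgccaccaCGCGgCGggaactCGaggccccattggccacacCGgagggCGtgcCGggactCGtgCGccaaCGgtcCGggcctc
Lypd9 promoter, slow, minus strand, chr11:58452967-58453216: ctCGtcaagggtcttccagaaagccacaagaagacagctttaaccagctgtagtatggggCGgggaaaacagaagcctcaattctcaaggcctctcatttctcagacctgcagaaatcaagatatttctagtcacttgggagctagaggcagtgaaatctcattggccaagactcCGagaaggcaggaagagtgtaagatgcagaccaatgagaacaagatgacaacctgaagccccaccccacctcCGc
The printed stretch holds 22 CpG at Meioc, 27 at Hsf5, 15 at Tex19.1, 4 at Lypd9 and 1 at Krt31. The residual class thus held both a CpG-rich promoter and the poorest of the 5, which were picked after their values were seen. Over the chromosome, 1250 of 1637 coding gene symbols matched the RefSeq table, with 1532 promoters. Their median was 13 CpG in 250 bases. The 34 stretches wholly inside residual domains had a median of 7 (quartiles 4 and 22), the 18 in slow domains 4 (1.25 and 5.75), and the 11 in intermediate domains 5 (3 and 19). Another 15 lay partly in a domain, with a median of 4. The 1454 promoters outside any domain had a median of 13.

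The second printed sequence comes from the longest residual domain of the chromosome, at Grb10, an imprinted gene for an adaptor that dampens growth factor signalling. Capitals mark TGCCGC on either strand, the letters bound by ZFP57, a zinc finger protein that recruits TRIM28 and SETDB1 to imprinted regions when the CpG in them is methylated.
Grb10 domain, residual, plus strand, chr11:12036876-12037175: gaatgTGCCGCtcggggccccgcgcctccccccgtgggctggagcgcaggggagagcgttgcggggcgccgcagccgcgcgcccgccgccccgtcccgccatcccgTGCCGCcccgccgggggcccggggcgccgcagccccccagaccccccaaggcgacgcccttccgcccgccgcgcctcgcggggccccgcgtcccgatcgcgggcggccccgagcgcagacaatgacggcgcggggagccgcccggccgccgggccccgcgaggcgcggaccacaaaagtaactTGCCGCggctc
The stretch has 3 matches and 53 CpG. It was chosen as the densest stretch of matches in the domain outside untranslated exons. Its middle lay 375 bp from the nearest annotated Grb10 transcript start. Across the chromosome, 2.34% of 395816 consecutive stretches of 300 bases held the letters and 74 of them held at least 3 matches. The whole Grb10 domain held 10 matches over 27.2 kb. A denser group of 4 matches, with 35 CpG, lay at chr11:12026016-12026315 within an annotated untranslated exon and is not printed. A match is a description of the letters and not a bound site. Whether the printed stretch or the denser group is methylated, or controls imprinting, was not tested.

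The third sequence is the centre of the shortest fast domain, 0.9 kb inside an intron of Bahcc1, with CpG in capitals, and shows 1 of only 9 fast domains.
Bahcc1 intron, fast, plus strand, chr11:120242751-120242950: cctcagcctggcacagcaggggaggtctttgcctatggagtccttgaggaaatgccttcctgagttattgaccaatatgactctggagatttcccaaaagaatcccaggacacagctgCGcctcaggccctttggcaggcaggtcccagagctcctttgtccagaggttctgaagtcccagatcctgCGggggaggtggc
This stretch holds 2 CpG. The last set is the 18-base primer binding sites at which a retroviral element binds a cellular tRNA to start reverse transcription. The 4 shown were among the sites most often found inside domains of the chromosome, and each is the complement of the 3' end of the tRNA named.
Leucine tRNA site: tggtaccaggagtggggt
Phenylalanine tRNA site: tggtgctgaaacccggga
Glutamine tRNA site: tggaggtcccaccgagat
Proline tRNA site: tgggggctcgtccgggat
All 12 matches of the phenylalanine site on the chromosome lay inside domains, as did all 5 of the glutamine site and all 5 of the proline site, against 13 of 40 for the leucine site. Phenylalanine tRNA primes intracisternal A particles, and leucine tRNA primes the ERVL elements. Over the 125 sites searched, 61 of 105 matches lay in domains, while domains covered 7.25% of the chromosome. By class, 30 slow and 26 intermediate domains held a site, but only 2 residual domains and 0 of 9 fast domains did.

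Slow domains made up the largest class on chromosome 11. There were 900 slow domains (39.5%, 95% interval 37.5 to 41.5), 868 intermediate domains (38.1%, 36.1 to 40.1), 503 residual domains (22.1%, 20.4 to 23.8) and 9 fast domains (0.395%, 0.181 to 0.748). Over all 42890 domains placed on chromosomes 1 to 19, X and Y the shares were 20.5% slow, 71.5% intermediate, 4.57% residual and 3.49% fast. Slow and residual domains together reached 61.5% on chromosome 11, where the median of the other autosomes was 20.3%. By covered length the order was the same: slow domains held 46.0% of the 8.85 Mb in domains, intermediate domains 31.6%, residual domains 22.2% and fast domains 0.258%.

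Among the 19 autosomes, chromosome 11 ranked first in residual share and second in slow share, after chromosome 8. It ranked 18 in both intermediate and fast share. Chromosome 8 was the one autosome with a like composition, at 45.4% slow, 17.4% residual, 37.1% intermediate and 0.0697% fast domains. On the 17 autosomes other than 8 and 11, the residual share ran from 1.28 to 3.21%, the slow share from 16.0 to 21.4%, the intermediate share from 73.2 to 80.0% and the fast share from 2.35 to 3.87%. Chromosome 11 lay outside each of these ranges. The table gives no input coverage, so the copy number of single chromosomes in these cells was not tested. The X chromosome had more fast domains, 14.8%, and 6.01% residual ones.

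**Figure D1:**
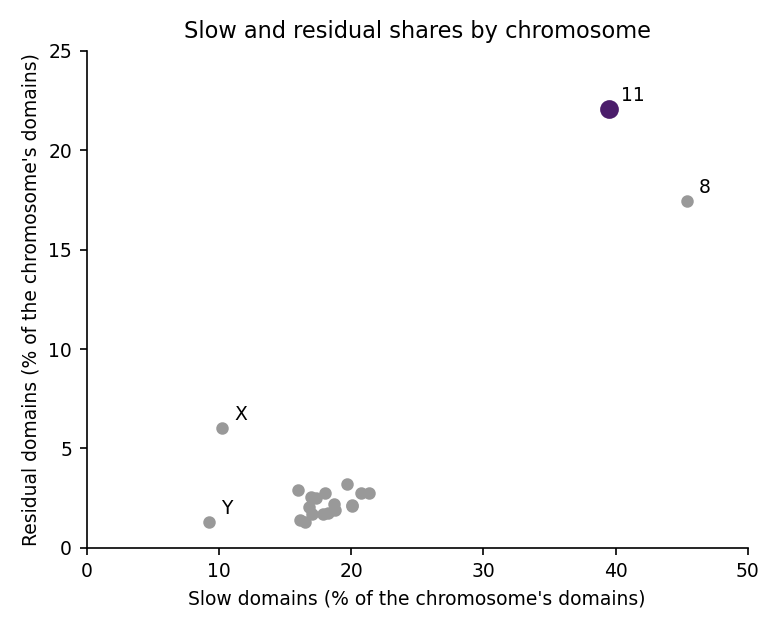
Share of slow domains (x axis, percent of the chromosome's domains) against share of residual domains (y axis, percent) for chromosomes 1 to 19, X and Y, with 1 point per chromosome. Chromosome 11 (dark point) sits at 39.5% slow and 22.1% residual, near chromosome 8 and away from the other autosomes, whose residual shares end at 3.21%.

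Domains were also dense on chromosome 11, at 18.7 per Mb. The other autosomes ran from 12.6 on chromosome 19 to 22.2 on chromosome 8, with a median of 15.6. The median gap between neighbours was 24 kb (quartiles 9.45 and 55.0 kb). The widest gap, 914.4 kb, ran from 59576401 to 60490800.

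Along the chromosome the residual class was unevenly spread. In 25 windows of 5 Mb, counted from the centromere end and each with at least 20 domains, its share had a median of 25.9%. It was lowest at 10 to 15 Mb, with 6 of 147 domains (4.08%), and highest at 80 to 85 Mb, with 45 of 91 (49.5%). The slow share ran from 19.12% at 95 to 100 Mb, the window of the Hoxb and some keratin-associated genes, to 52.3% at 70 to 75 Mb, the window of Nlrp1a and of a cluster of olfactory receptors. The intermediate share ran from 10.99% at 80 to 85 Mb to 54.0% at 20 to 25 Mb. At least 46.0% of the domains of every window were slow or residual.

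**Figure D2:**
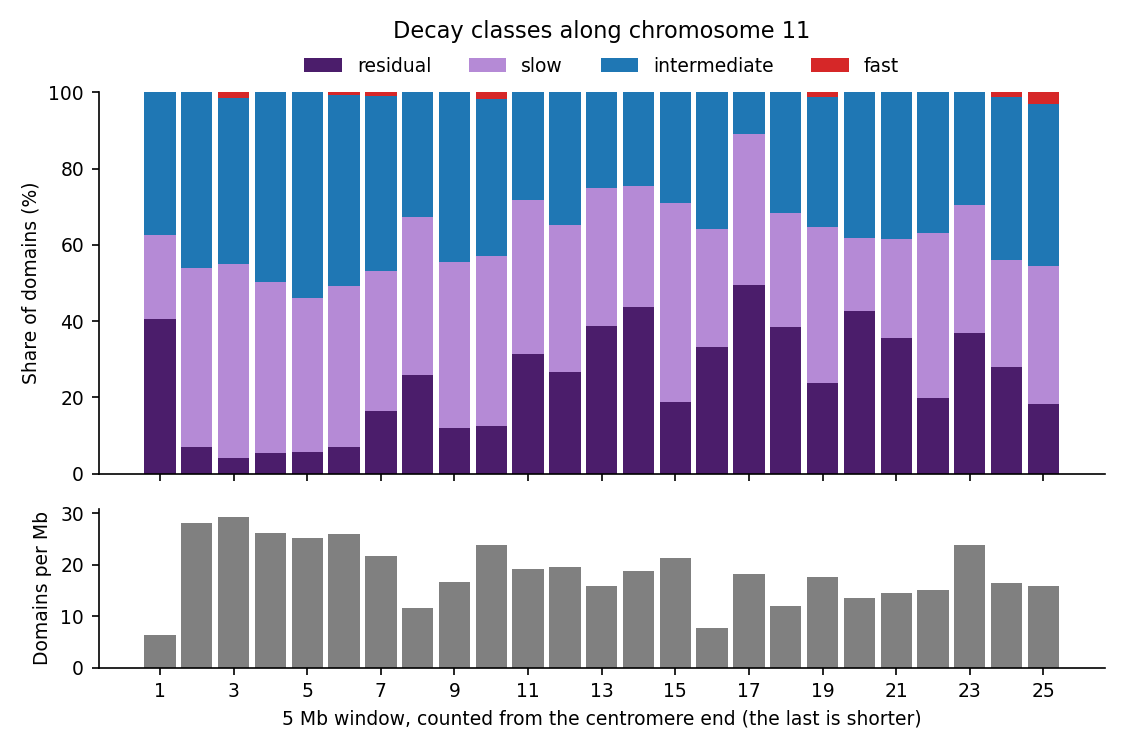
Share of each decay class (upper panel, percent of domains) and number of domains per Mb (lower panel) in 25 windows of 5 Mb along chromosome 11; the last window is shorter. The residual share is 4.08 to 7.09% in windows 2 to 6 and peaks at 49.5% in window 17, while slow and residual domains together make up 46.0 to 89.0%.

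The stretch from 5 to 30 Mb held few residual domains but many domains. Its borders were set after the window values were seen, so the contrast is a description. There, 39 of 675 domains were residual (5.78%, 95% interval 4.14 to 7.81), 306 were slow (45.3%) and 327 intermediate (48.4%). Beyond 30 Mb, 451 of 1573 domains were residual (28.7%, 26.4 to 31.0), 587 were slow (37.3%) and 529 intermediate (33.6%). In the first 5 Mb, 13 of 32 domains were residual. The residual domains of the 5 to 30 Mb stretch lay on gene bodies less often, 13 of 39, than those beyond 30 Mb, 303 of 451 (33.3 against 67.2%). Slow domains did so as well, with 23.5 against 47.7%, and intermediate domains with 24.8 against 43.1%. Grb10 and its 44.4 kb domain lie inside the residual-poor stretch.

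The windows rich in residual domains were also rich in genes and in GC. Across the 25 windows, Spearman's rho of the residual share was 0.66 with GC content and 0.57 with the number of coding genes that start there. The slow share went the other way, with rho of -0.72 for GC content and -0.48 for gene number. These are descriptions over neighbouring windows of 1 chromosome, whose gene number, GC content and repeat content vary together.

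Domains of 1 class tended to stand side by side. Of the neighbours of residual domains, 44.8% were residual, beside a share of 22.1% among all domains of the chromosome. For slow domains the values were 45.9% beside 39.5%, and for intermediate domains 46.4% beside 38.1%. None of the 18 neighbours of fast domains was fast. The longest unbroken runs of residual domains had 10 members each, and lay at the Hoxb cluster and in the gene-poor stretch after Sox9.

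Slow domains were the widest class. They had a median width of 3.0 kb, with quartiles of 2.1 and 5.4 kb. The median was 2.7 kb (1.8 and 4.2) for residual, 2.4 kb (1.5 and 3.9) for intermediate and 2.7 kb (1.8 and 3.3) for fast domains. Domains over 6 kb made up 21.2% of the slow class, 14.5% of the residual class and 10.3% of the intermediate class, and 0 of the 9 fast domains were that wide. Slow domains were narrower on chromosome 11 than on the other 18 autosomes, where their median was 4.5 kb, or 5.1 kb with chromosome 8 left out as well. On chromosome 8 it was 3.0 kb. Residual domains had a median of 2.7 kb on chromosome 11 and on the other autosomes alike.

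The class share changed with width. Among the 504 domains up to 1.5 kb, 51.0% were intermediate and 29.2% slow. Among the 80 domains over 12 kb, 20.0% were intermediate and 57.5% slow. The residual share stayed between 19.4 and 24.2% in all 5 bins of width. On the other autosomes the slow share reached about the same height in the widest bin, 57.7% over 12 kb, but was only 10.0% up to 1.5 kb. Between chromosome 11 and the others, the slow share differed most in the narrower bins: it was 37.3 against 12.7% from 1.8 to 3 kb and 42.4 against 20.4% from 3.3 to 6 kb, but 53.1 against 45.8% from 6.3 to 12 kb. Chromosome 8, which is among the others here, also had many narrow slow domains. Its slow share was 39.1% up to 1.5 kb, 43.5% from 1.8 to 3 kb and 43.7% from 3.3 to 6 kb.

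**Figure D3:**
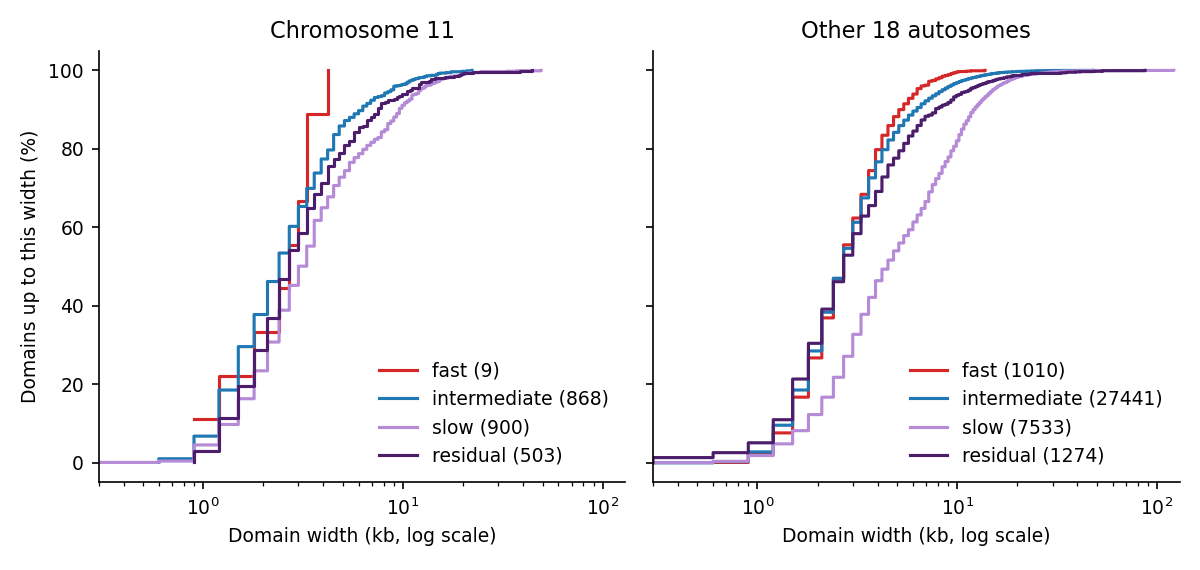
Cumulative share of domains (y axis, percent) by domain width (x axis, kb, log scale) for the 4 decay classes on chromosome 11 (left) and on the other 18 autosomes (right), with the number of domains in brackets. The slow curve lies nearest to the other classes on chromosome 11, with a median of 3.0 kb, and is set further to the right on the other autosomes, with a median of 4.5 kb.

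Residual domains lay on genes more often than the other classes. Of the 503 residual domains, 326 overlapped a gene body (64.8%, 95% interval 60.5 to 69.0), 200 an exon of a protein-coding gene (39.8%, 35.5 to 44.2) and 111 a promoter (22.1%, 18.5 to 25.9). Here an overlap needs 1 bp, genes are those of GENCODE vM21, and a promoter runs from 1 kb before to 1 kb after the start of a protein-coding transcript. Of the slow domains, 39.8% lay on a gene body, 10.3% on an exon and 4.11% on a promoter. The intermediate domains had 36.1%, 8.29% and 3.802%. Of the 9 fast domains, 4 lay on gene bodies, 1 on an exon and 0 on a promoter. So small a number allows a promoter share of up to 33.6%, the upper Clopper-Pearson limit.

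Most of the marked promoters of the chromosome were residual. Of the 181 domains on promoters, 111 were residual (61.3%, 53.8 to 68.5), 37 slow and 33 intermediate. Of the 366 domains on exons of coding genes, 200 were residual (54.6%, 49.4 to 59.8). On the other autosomes the residual class made up 18.5% of promoter domains and 13.2% of exon domains. Chromosome 8 alone was much nearer, with 52.8% of its promoter domains and 38.6% of its exon domains residual. With chromosome 8 left out, the other autosomes had 14.7% and 10.2%. The share of residual domains that lay on gene bodies was close to that of the other autosomes, 64.8 against 63.9%. It was higher for exons, 39.8 against 26.2%, and promoters, 22.1 against 15.6%. Without chromosome 8, the other autosomes had 67.4, 29.97 and 18.3%. The promoter intervals then overlapped, 18.5 to 25.9% against 15.7 to 21.3%. Slow domains, too, had higher exon and promoter shares than on the other autosomes together, 10.3 against 7.02% and 4.11 against 2.83%. For intermediate domains the values were 8.29 against 5.75% and 3.802 against 2.28%. For promoters the order of the classes on chromosome 11 was the same among narrow domains. Up to 3 kb, 16.6% of residual, 4.43% of slow and 3.35% of intermediate domains lay on a promoter. Among wider ones the shares were 29.8, 3.79 and 4.65%, so the residual class was again the highest.

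**Figure D4:**
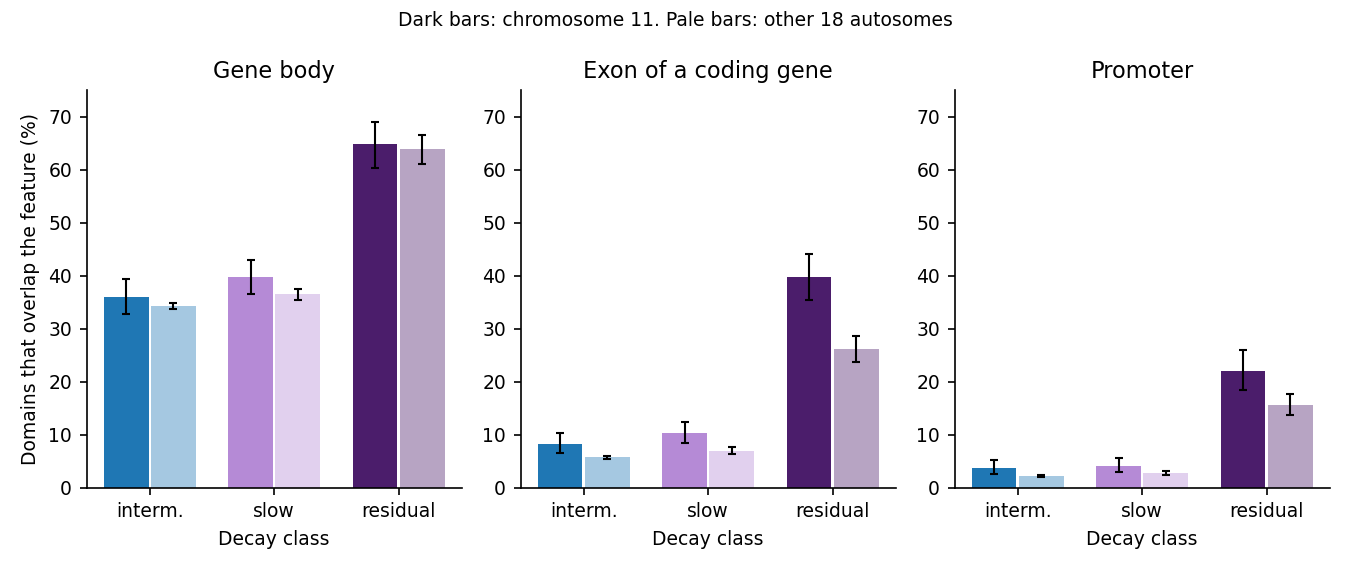
Share of domains (y axis, percent) of the intermediate, slow and residual classes that overlap a gene body, an exon of a coding gene or a promoter on chromosome 11 (dark bars) and on the other 18 autosomes (pale bars); error bars are 95% Clopper-Pearson intervals that cover counting only. The residual bars are the tallest in each panel, at 64.8, 39.8 and 22.1% on chromosome 11.

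The residual domains on no promoter or coding-gene exon lay mostly between genes. In 81 of 503 (16.1%) a coding-gene intron alone was covered, 35 (6.96%) lay on noncoding genes or pseudogenes only, and 172 (34.2%) were intergenic. Most slow domains (536, or 59.6%) and intermediate domains (546, or 62.9%) were intergenic.

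The classes also differed in repeat content. The soft-masked share of the sequence, which marks interspersed and simple repeats, had a median of 12.9% (quartiles 8.12 and 20.7) in residual domains. It was 56.4% (23.7 and 82.1) in slow, 47.4% (27.3 and 76.0) in intermediate and 97.2% (43.8 and 99) in fast domains. In 415 residual domains (82.5%) less than 25% of the sequence was masked, and in 5 (0.994%) more than 75% was. Residual domains had a median GC content of 49.0%, against 43.5% in slow and 43.9% in intermediate domains. Intergenic residual domains were low in repeats too, with a median of 17.8% masked, where intergenic slow domains had 69.9% and intergenic intermediate domains 53.3%. Slow domains of the other autosomes were richer in repeats than those of chromosome 11, with a median of 74.4%, or 75.7% without chromosome 8. On chromosome 8 alone the median was 63.9%.

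The letters TGCCGC occurred in 183 residual domains (36.4%), 266 slow domains (29.6%) and 204 intermediate domains (23.5%). Per 10 kb there were 1.66 matches in residual, 1.67 in slow and 1.12 in intermediate domains. Among promoters of the chromosome, 12.4% of those 250-base stretches held them, and 3 of the 34 wholly inside residual domains did (8.82%).

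Of the 1639 protein-coding genes of chromosome 11, 427 had a domain on the body (26.1%). Residual domains lay on 204 (12.4%), slow domains on 172 and intermediate domains on 171, with 93 genes under 2 or more classes. A residual domain lay on the promoter of 111 genes (6.77%), a slow one on that of 39 and an intermediate one on that of 33. In 142 genes every domain was residual. Of the 811 domains on coding-gene bodies, 35.6% were residual, 34.4% slow and 29.5% intermediate. These shares are the background for the gene groups that follow. Their lists were matched by symbol, and they are described by counts alone.

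**Figure D5:**
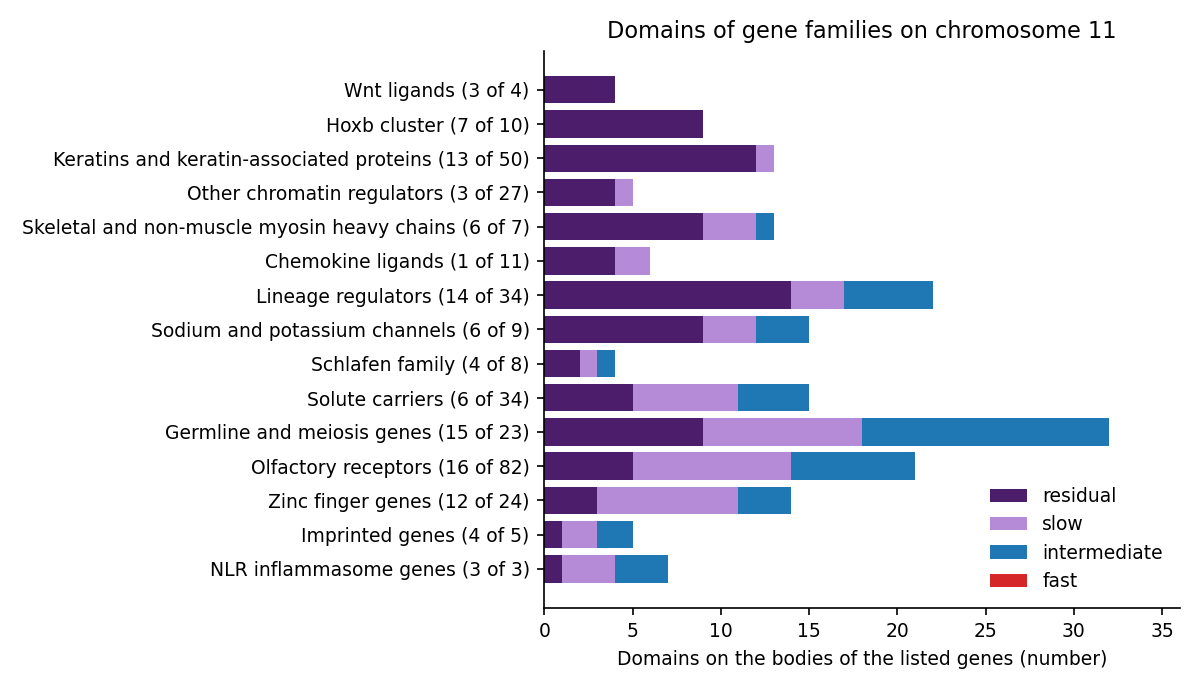
Number of domains (x axis) of each decay class on the bodies of gene groups with at least 4 domains on chromosome 11; brackets give how many of the group's members on the chromosome have a domain. All 9 domains of the Hoxb cluster and all 4 on Wnt genes are residual, while slow domains lead among zinc finger genes, with 8 of 14.

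The Hoxb cluster, which sets position along the body axis, was covered by residual domains alone. A run of 10 residual domains spanned 122.1 kb (chr11:96262501-96384600) and covered 60 kb of it, with widths from 1.5 to 14.4 kb. Of the 10 Hoxb genes of the list, 7 had a domain on the body. Hoxb9 and Hoxb1 lay entirely inside one, Hoxb2 had 65.3% and Hoxb3 57.3% of its body covered, Hoxb7 50.8%, Hoxb5 25.9% and Hoxb6 16.5%. Hoxb4 was touched at the promoter only, over 134 bp, and Hoxb8 and Hoxb13 had no domain. No more than 19.7% of any domain of the run was soft-masked.

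Other regulators of development carried residual domains as well. Binding of the H3K9me3 antibody to other marks at such genes was not tested. Of 34 lineage regulators, 14 had a domain, 11 of them a residual one, and 14 of the 22 domains were residual. Tlx3, a homeobox gene of sensory neurons, had 93.3% of its body in a residual domain, Neurod2, a neuronal bHLH factor, 82.3%, Tbx2, a T-box repressor, 76.6%, and Foxi1, a forkhead factor of the inner ear and kidney, 71.7%. Tbx2 and Tbx4, the latter a hindlimb and lung factor, were part of a run of 7 residual domains with Bcas3 that spanned 99.6 kb (chr11:85825201-85924800). Bcl11a, a repressor of fetal globin genes, had 1 intermediate and 1 slow domain. Stat3, which carries the LIF signal in stem cells, had 1 intermediate domain of 3.3 kb in its body, and the neighbouring Stat5a had a residual one of 1.8 kb.

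Sox9, a regulator of cartilage and testis development, was the exception at its own promoter. An intermediate domain of 2.1 kb covered 1077 bp of the promoter (chr11:112780201-112782300). The next domain downstream, 1.44 kb past the gene, was residual and 12 kb wide, and opened a run of 10 residual domains over 186.6 kb (chr11:112789201-112975800) with 0 coding genes. The widest domain of the run, 22.5 kb, lay 149.0 kb from Sox9. Within 200 kb of Sox9, 15 domains were residual, 5 intermediate and 2 slow.

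The Wnt genes, which encode secreted signals of patterning, had residual domains only. Wnt3 was covered over 85.5% of its body by the second longest residual domain of the chromosome, 38.4 kb (chr11:103780501-103818900), which stopped short of its annotated promoter. Its neighbour Wnt9b had 38.4% of its body and all 2001 bp of its promoter in a domain of 11.1 kb. Wnt3a had 2 residual domains of 8.1 kb together, and Wnt9a had none. Among secreted guidance factors outside this family, Ntn1, a netrin, had 6 residual domains of 28.5 kb together, beside 2 slow ones of 2.4 kb and 1 intermediate one of 2.7 kb. Slit3 had 6 residual domains of 29.4 kb, 6 slow ones of 21.0 kb and 2 intermediate ones of 12.6 kb.

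The keratin promoters under a domain were nearly all residual, but most keratin genes had no domain. Of 50 keratins and keratin-associated proteins, which form the filaments of skin and hair, 13 had a domain on the body, and 12 of the 13 were residual and reached the promoter. Krt34 and Krt36 lay entirely inside a residual domain, as did Krtap16-1, and Krt16, a keratin of stressed epidermis, had 85.4% of its body covered. Krt32 was the exception, with a slow domain on 26.1% of its body and on 1475 bp of its promoter. From Krt34 to Krt42, 10 residual domains covered 38.1 kb and 4 slow ones 13.8 kb.

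The myosin heavy chains of skeletal muscle and of non-muscle cells were mostly marked in their bodies. Of 7 genes, 6 had a domain (Myh1, Myh2, Myh3, Myh4, Myh8 and Myh13), with 9 residual, 3 slow and 1 intermediate domain in all. Myh8, the perinatal form, had 13.2 kb in residual and 4.8 kb in slow domains, or 57.2% of its body. Myh13 of the extraocular muscles was the one with more in slow, 9 kb, than in residual domains, 1.5 kb. Of the alpha-globin genes, the embryonic Hba-x had a residual domain over 1500 bp of its promoter, and the adult genes had none.

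Cbx8, a gene of the Polycomb family, had 1 residual domain, which covered 25.7% of its body. Cbx2 and Cbx1, the latter the gene of HP1b, had none. Of 27 other chromatin regulators, 3 had a domain (Chd3, Ikzf1 and Ikzf3), and 4 of their 5 domains were residual. Chd3, a nucleosome remodeller, had 2 residual domains of 7.8 kb together, which covered 2290 bp of promoter. Alox15, a lipoxygenase, had 83.8% of its body in a residual domain, and Alox12 had 19.4%. Stc2, a secreted glycoprotein hormone, had 88.5%. Of 9 sodium and potassium channel genes, 6 had a domain, and 9 of the 15 domains were residual. Kcnip1, for a potassium channel partner, held 8 of these 15 domains, with 18.3 kb in residual, 7.2 kb in intermediate and 4.5 kb in slow ones. Among the 34 solute carriers, 6 had a domain, in 3 classes: 6 slow, 5 residual and 4 intermediate. Slc39a11, a gene of 405.2 kb, alone held 5 of the slow and 3 of the intermediate domains, and 0 of the residual ones. Of 8 Schlafen genes 4 had 1 domain each, with 2 of them residual. Ccl1 was the one of 11 chemokine genes with a domain, and its gene model spans 129.0 kb.

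Asic2, a neuronal proton-gated channel gene of 1088 kb, had the most bases in residual domains. It had 32 domains, the most of any gene on the chromosome, with 17 residual (96.4 kb of its body), 12 slow (60.9 kb) and 3 intermediate (6.9 kb). The median soft-masked share was 14.8% in its residual and 17.4% in its slow domains. Sgcd, a sarcoglycan gene of nearly the same length, 1093 kb, had 0 residual domains, 12 slow, 4 intermediate and 1 fast domain. Its slow domains were 43.4% masked in the median and its intermediate ones 83.5%.

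Imprinted genes were few and differed among themselves. The Grb10 domain (chr11:12005101-12049500) was the longest residual domain of the chromosome, at 44.4 kb, and covered 31.0% of the gene and 6931 bp of its promoters, with 5 of 6 annotated transcript starts inside it. A separate slow domain of 1.5 kb lay on another promoter of Grb10, over 1342 bp. The flanking genes Ddc, for dopa decarboxylase, and Cobl, an actin nucleator, had 1 intermediate domain each, of 3.3 and 1.5 kb. Commd1 had 1 slow domain of 1.2 kb, shared with the overlapping gene model Gm28048, and Zrsr1, the imprinted gene inside it, had none.

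Genes listed as germline or meiosis genes carried all classes but the fast one. The list was matched by symbol, and expression of its members in the germline was not tested. Of 23 genes, 15 had a domain, with 14 intermediate, 9 slow and 9 residual domains. An intermediate domain lay on 10 of the 15, a residual one on 7 and a slow one on 5. Many of these domains fell in long gene bodies. Ankfn1 (387.4 kb) held 2 intermediate, 1 slow and 2 residual domains, and Shisa6 (314.2 kb) held 2 of each. Asb3 (217.3 kb) held 2 intermediate and 1 slow, and Dnah9 (337.3 kb) held 4 slow and 1 residual. At Meioc a residual domain of 3.3 kb lay wholly on promoter sequence (chr11:102663001-102666300), and Spata22, a meiotic recombination gene, had all 2001 bp of its promoter in a residual domain of 4.2 kb that it shares with Aspa. Hsf5 had its whole promoter of 2001 bp in an intermediate domain. Tex19.1, printed above, and its neighbouring copy Tex19.2 had different classes. Tex19.2 lay entirely inside a residual domain of 2.7 kb (chr11:121116001-121118700), of which 1.85% was soft-masked. Tex19.1 had 1758 bp of its promoter in an intermediate domain of 3 kb (chr11:121143901-121146900).

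Zinc finger genes had more slow domains than domains of other classes. For comparison, as given above, 34.4% of all 811 domains on coding-gene bodies of the chromosome were slow, 35.6% residual and 29.5% intermediate. Of 24 zinc finger genes, a family many of whose members silence retrotransposons, 12 had a domain, and 8 of the 14 domains were slow. Zfp735 lay in a run of 10 slow domains over 290.7 kb (chr11:73550101-73840800), and Zfp385c had 11.1 kb in a slow domain. Of 82 olfactory receptor genes, 16 had a domain, with 9 slow, 7 intermediate and 5 residual domains, a mix not far from that background. Olfr401 and Olfr406 lay in another run of 10 slow domains over 183.6 kb (chr11:74090101-74273700), which held the third longest slow domain of the chromosome, 33 kb. Of these receptor counts, 3 slow, 1 intermediate and 1 residual domain fall to Olfr56, whose gene model spans 156.5 kb. Nlrp1a, an inflammasome sensor, met the second longest, 37.2 kb (chr11:71055901-71093100), at its end, and its neighbour copy Nlrp1b had 3 intermediate domains of 9 kb together.

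The longest slow domain of the chromosome, 49.2 kb (chr11:120300601-120349800), covered the whole of Actg1, for cytoplasmic gamma-actin, a gene active in nearly all cells. It took in all 2.85 kb of the gene and 3566 bp of its promoters, and 50.4% of the domain was soft-masked. It held 12 matches to TGCCGC, more than any other domain of the chromosome, but it was also the longest domain of any class there. An intermediate domain of only 4.8 kb in Ncbp3 held 9. Lypd9, with 80.0% of its body, and Aipl1, a photoreceptor chaperone, with 68.5%, led the genes of at least 5 kb by share in slow domains. Of 9 genes with ribosomal protein symbols only Rpl9-ps1, a pseudogene by its name, had a domain, which was slow.

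The largest share of a gene body, in genes of at least 5 kb, was 63.2% for intermediate, 80.0% for slow and 100% for residual domains. The shorter gene Gm6685 lay entirely inside an intermediate domain. The longest intermediate domain, 22.2 kb (chr11:12901201-12923400), was intergenic, 436.2 kb from Cobl. Vstm2a had the most bases in intermediate domains, 23.1 kb, and Itgb3, the platelet integrin beta 3, had 12.6 kb in 1 domain, or 20.2% of its body. Among genes of at least 5 kb, Cd300ld3, an immune receptor gene, had the largest share of its body in intermediate domains, 63.2%. Adcy1, an adenylyl cyclase of neurons, and Igfbp1, a binding protein for insulin-like growth factors, each had their whole promoter of 2001 bp in an intermediate domain. Of the type 2 cytokine cluster, Il4 and Kif3a had 1 intermediate domain each and Il3 a slow one.

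The 9 fast domains ran from 0.9 to 4.2 kb in width and were mostly repeats. Of these, 5 lay between genes and 4 on Fancl, a Fanconi anaemia ubiquitin ligase, Sgcd, BC053393 and Bahcc1, a chromatin protein. The domain in Fancl was the widest (chr11:26426701-26430900) and 100% soft-masked, and that in Sgcd was 97.5% masked. The Bahcc1 domain printed above was the least masked, at 6.56%. The one in BC053393, 25.3% masked, was the only fast domain on an exon, over 58 bp. The low number leaves the shares of this class imprecise.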

How the data were processed

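The deposited file used is the authors' table of H3K9me3 domains on mm10, whose 3 used columns are start, end and a decay class in words; other measurements were not analysed here. Bowtie2 2.3.4.1, bedtools, deepTools and SAMtools 1.1 are named, per the submitters' processing notes. How domains were called, how the signal was scaled by the 1.5 µg of Drosophila chromatin added to 20 µg of sample, how reads in repeats were placed and where the class limits lie are not stated in the sources used here. Domain borders lie on a grid of 300 bp. Reads in repeats can come from several copies.

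Domains were compared with GENCODE vM21 and the GRCm38.p6 sequence with pandas 2.3.3, numpy 2.4.6, scipy 1.17.1 and matplotlib 3.10.9 under Python 3.11.15. Coordinates are 1-based. On chromosome 11, 0 domains ran past the end, 0 touched each other and 435 bases were N. The overlap code was tested on simulated intervals. Primer binding sites were taken from 403 tRNA genes, giving 127 sites of 18 bases, of which 2 shared between amino acids were left out.

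Named genes are those under fast domains, the 5 longest domains per class, the 8 genes per class with most bases, largest share of the body (genes of at least 5 kb) or most promoter bases covered, and up to 3 members per gene list and class. Other genes named beside these were picked after their values were seen. The chromosome, the 21 gene lists and the rules were chosen with earlier results of these data known.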

Additional observations from a re-analysis of the deposited data

How the results depend on the processing

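Class shares, widths and gene overlaps were recomputed under 13 alternatives. By covered length, 31.6% was intermediate and 46.0% slow; with only domains of at least 3 kb, 32.2% and 46.0%. The residual share moved by less than its interval in both. In windows of 10 Mb the lowest slow share was 31.3%, and in windows shifted by 2.5 Mb the lowest residual share was 0.714%.

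Stricter overlap lowered all shares. With the domain midpoint inside the feature, residual, slow and intermediate domains lay on gene bodies in 59.2, 32.9 and 31.5%, on exons in 12.7, 1.67 and 1.73%, and on promoters in 8.35, 1.67 and 1.50%. With at least 50% of the domain inside, the values were 59.6, 32.4 and 31.2%, then 8.55, 0.889 and 1.38%, then 6.36, 1.56 and 1.50%. With promoters of 5 kb to either side they were 33.4, 10.8 and 11.3%. The residual class had the highest share of each feature in all of these, and in those with promoters of 0.5 kb, without domains of up to 600 bp and without domains over 6 kb, by a factor of 1.63 to 7.36 over the next class. Slow and intermediate domains changed order in exon and promoter overlap. Merging neighbours of 1 class with a gap under 5 kb moved no share or width beyond its interval.

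No paired analysis was possible because the table has no sample values. Depth per domain is unknown, and the table holds no level at any time. The gene models of Ccl1 (129.0 kb), Asb3 (217.3 kb) and Olfr56 (156.5 kb) are long, and each domain inside a model was counted for its gene.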
